A study of Mus musculus with 6 samples.

Results

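Of the 54146 genes in the deposited counts of whole mouse kidney, 10 are described here. They are the Toll-like receptor genes Tlr1, Tlr2, Tlr3, Tlr4, Tlr7, Tlr8, Tlr9 and Tlr13, and the genes Myd88 and Ticam1 for the main adaptors of those receptors. They were matched by symbol, and were chosen with earlier results of these data known. All 10 were found, and all 10 were among the 17308 genes that passed the filter on low counts. Kidneys came from 12-week-old mice (postnatal day 84) of the strain B6C3F1/J. By their labels, 3 libraries are Tfam f/f, from controls with a floxed Tfam gene and no Cre, and 3 are KspCre Tfam f/f. That label stands for the same floxed alleles with the Ksp-Cre transgene, whose Ksp-cadherin promoter is active in tubule epithelium. The measured level of Tfam goes against these labels, as given next, so neither genotype is taken as known. Per its title, the study asks how damage to mitochondria engages cytosolic DNA sensing through STING in chronic kidney disease.

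Before any direction was given, the targeted gene was checked, and it went against the labels. Tfam, which encodes the packaging protein of mitochondrial DNA, had 30.3, 33.6 and 23.2 normalised CPM (counts scaled to 1000000 per library) in Tfam f/f-labelled replicates 1, 2 and 3. It had 63.1, 63.5 and 61.4 CPM in KspCre Tfam f/f-labelled replicates 1, 2 and 3. The 13 mRNAs encoded by mitochondrial DNA went the same way, at 2.39% to 5.67% of counts in the former and 11.0% to 11.1% in the latter. Every direction below is therefore between the libraries as labelled, not between known genotypes, and each would turn if the 2 labels had been exchanged, which was not tested. Total gene counts ran from 19024208 to 48899266 per library. Summed markers of the proximal tubule (9 genes, 2684 to 12470 CPM in the Tfam f/f-labelled libraries and 40660 to 42400 in the others) and of the distal nephron (8 genes, 4538 to 7512 and 10940 to 11980 CPM) were detected in all 6 libraries. Tfam f/f-labelled replicate 3 stood apart, with the lowest of both tubule sums and the highest sum of macrophage markers, so fold changes are also given without it. In bulk tissue, fewer cells of a type and less RNA per cell cannot be told apart.

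Toll-like receptors are membrane proteins that bind microbial molecules, or the cell's own molecules when these appear in the wrong place, and pass the signal on through a shared cytoplasmic TIR domain. Tlr1, Tlr2 and Tlr4 act mainly at the cell surface, while Tlr3, Tlr7, Tlr8, Tlr9 and Tlr13 act in endosomes and sense nucleic acids. Most of them signal through Myd88 to NF-kappaB and interferon regulatory factors. Tlr3 uses the adaptor encoded by Ticam1, and Tlr4 uses both. Tlr9 senses DNA rich in unmethylated CpG, a feature that mitochondrial DNA shares with bacterial DNA. In the kidney these receptors are known from resident macrophages and dendritic cells, and some also from tubule epithelium.

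All 10 genes had their higher fitted mean in the Tfam f/f-labelled libraries, and 6 passed the edgeR quasi-likelihood test there with Benjamini-Hochberg adjustment: Tlr1, Tlr2, Tlr3, Tlr8, Tlr13 and Myd88. All 10 also had this direction by DESeq2 and limma voom, so none could pass in the other direction in these fits. Over all 17308 genes tested, 46.2% passed, 24.9% as higher in the Tfam f/f-labelled libraries and 21.3% as higher in the KspCre Tfam f/f-labelled ones. The members' share of 60% is therefore set beside 24.9%. The members were chosen with earlier results of these data known, so neither this share nor the median below is an independent test. Tlr4, Tlr7, Tlr9 and Ticam1 did not pass. The median log2 fold change of the 10, labelled KspCre Tfam f/f minus labelled Tfam f/f as throughout, was -0.87, against -0.028 over all tested genes. The same 6 genes that passed were those whose libraries did not overlap between the groups, a state found in this direction for 32.1% of all tested genes. Of these, Tlr8 had passed the filter on low counts only through the Tfam f/f-labelled libraries, where it is high. Calls rested on few libraries: without KspCre Tfam f/f-labelled replicate 1, 2 or 3, only 2 members (20%), Tlr1 and Tlr2, passed each time. The share of all tested genes that passed in this direction was then 16.4%, 15.9% and 15.9%, so the members' share was near the background in these fits.

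**Figure D1:**
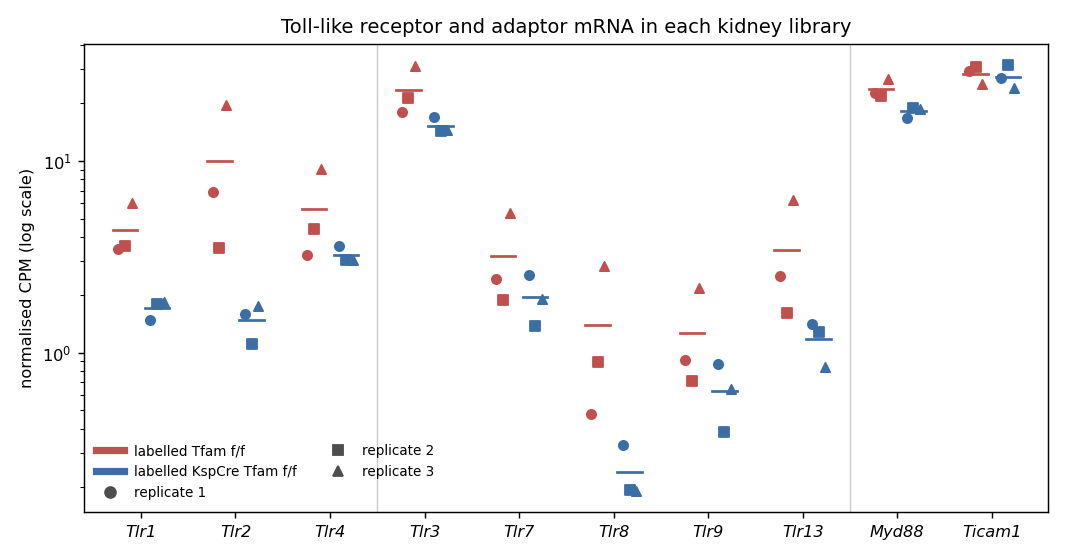
Normalised CPM (y axis, log scale) of each gene (x axis) in the 6 libraries. Points are libraries, their shapes the replicate numbers, and short lines the group means; surface receptors are on the left, nucleic acid receptors in the middle and adaptors on the right. Labelled Tfam f/f replicate 3 is the highest of all 6 libraries for each receptor and for Myd88, and the 2 groups of Ticam1 lie on top of each other (25.1 to 30.9 and 23.9 to 31.5 CPM).

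Promoters of 4 members are shown: Tlr9, the DNA sensor, Tlr2, with the largest fold change of the members, Tlr3, the most abundant of the 8 receptors, and Myd88, the shared adaptor. RefSeq's table for GRCm38.p6, the assembly also called mm10, matched 8 of the 10 genes, with 9 windows of the 250 bases before a transcription start. Tlr4 and Tlr7 were not among them. Each sequence is on the gene's own strand, and capitals mark matches, on either strand, to 1 of 3 motifs: GAGGAA, the core of sites for PU.1 and related Ets factors; GAAA and GAAA separated by NN, the core of interferon response elements; and the NF-kappaB motif. The Tlr2 window is chr3:83841609-83841858 on the minus strand, that of Tlr3 chr8:45410381-45410630 on the minus strand, that of Tlr9 chr9:106222348-106222597 on the plus strand, and that of Myd88 chr9:119340019-119340268 on the minus strand. GENCODE M21, used below for gene positions, places 3 of these starts elsewhere. By its limits the Myd88 and Tlr3 windows lie inside their genes, which begin at 119341411 and 45411080. The Tlr2 window lies partly inside its gene, which begins at 83841767.
Tlr2: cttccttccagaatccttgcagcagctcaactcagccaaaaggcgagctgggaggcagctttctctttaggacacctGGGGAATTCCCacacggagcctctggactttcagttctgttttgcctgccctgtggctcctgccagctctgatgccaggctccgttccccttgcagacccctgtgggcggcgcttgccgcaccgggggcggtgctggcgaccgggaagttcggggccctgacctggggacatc
Tlr3: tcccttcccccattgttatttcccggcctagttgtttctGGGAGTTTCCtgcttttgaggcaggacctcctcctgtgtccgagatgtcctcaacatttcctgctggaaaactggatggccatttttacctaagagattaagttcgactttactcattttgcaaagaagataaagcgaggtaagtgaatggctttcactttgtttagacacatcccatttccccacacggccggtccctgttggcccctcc
Tlr9: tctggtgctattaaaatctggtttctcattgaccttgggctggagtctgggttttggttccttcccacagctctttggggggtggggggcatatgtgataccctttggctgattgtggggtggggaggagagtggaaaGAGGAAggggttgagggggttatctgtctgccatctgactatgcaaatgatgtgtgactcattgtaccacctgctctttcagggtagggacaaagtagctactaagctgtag
Myd88: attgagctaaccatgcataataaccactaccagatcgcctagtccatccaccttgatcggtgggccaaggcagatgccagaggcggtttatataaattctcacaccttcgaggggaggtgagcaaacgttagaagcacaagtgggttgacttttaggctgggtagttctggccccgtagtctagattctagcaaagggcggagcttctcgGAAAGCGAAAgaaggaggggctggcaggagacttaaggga
The NF-kappaB motif was found in the windows of Tlr2, where 3 overlapping matches, counted over both strands, lie between 173 and 163 bases before the start, and of Tlr3, from 211 to 202 bases before it. Of all 32851 promoter windows in the table, 3.90% held that motif. The interferon response core, held by 2.98% of all windows, was found in the window of Myd88 alone, 40 to 31 bases before the start. GAGGAA was found for 5 of the 8 matched genes (Tlr1, Tlr8, Tlr9, Tlr13 and Ticam1), which is 5 of the 9 windows, and in 23.3% of all windows. A further window of Tlr1 did not hold it. In Tlr9 it lies 112 to 107 bases before the start, and it does not overlap another of these motifs in any window shown. These matches describe letters in a window and not binding sites.

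Among the surface receptors, Tlr2 and Tlr1 were higher in the Tfam f/f-labelled libraries and Tlr4 did not pass. Tlr2, which recognises bacterial lipoproteins as a pair with Tlr1 or Tlr6 (ENSMUSG00000027995.10, chromosome 3, 83836272 to 83841767), had 6.87, 3.53 and 19.5 CPM in Tfam f/f-labelled replicates 1, 2 and 3. In KspCre Tfam f/f-labelled replicates 1, 2 and 3 it had 1.6, 1.11 and 1.76 CPM. The groups did not overlap, although the Tfam f/f-labelled libraries themselves spread widely, with replicate 3 far above the others. The difference was 6.68-fold (log2 fold change -2.74, SE 0.62, edgeR adjusted p = 0.0105), with means of 9.96 ± 8.41 and 1.49 ± 0.34 CPM (SD, n = 3 each). Without Tfam f/f-labelled replicate 3 the log2 fold change of Tlr2 was -1.81.

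Tlr1, the partner of Tlr2 (chromosome 5, 64924679 to 64933563), had 3.45, 3.58 and 6.04 CPM in Tfam f/f-labelled replicates 1 to 3 and 1.48, 1.79 and 1.83 CPM in the other 3 libraries. It was 2.56-fold higher in the former (log2 fold change -1.35, SE 0.27, edgeR adjusted p = 0.00666) and passed under each of the 14 alternatives, the only member to do so. Tlr1 lies beside Tlr6, and 7.89% of the 100-base windows of its transcripts also occur in Tlr6. Reads from that stretch can align to both genes, so its counts are uncertain to that extent. Tlr4, the receptor for bacterial lipopolysaccharide (chromosome 4, 66827584 to 66930284), had 3.23, 4.40 and 9.11 CPM in Tfam f/f-labelled replicates 1, 2 and 3. In the others it had 3.62, 3.04 and 3.05 CPM, and the groups overlapped, since Tfam f/f-labelled replicate 1 was below replicate 1 of the other label. Its log2 fold change of -0.77 (SE 0.37) had an edgeR adjusted p of 0.117.

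Of the 5 nucleic acid receptors, Tlr3, Tlr8 and Tlr13 were higher in the Tfam f/f-labelled libraries, while Tlr7 and Tlr9 did not pass. Tlr9, the DNA sensor (ENSMUSG00000045322.10, chromosome 9, 106222598 to 106226883), had the lowest mean of the members per exon base in the Tfam f/f-labelled libraries, where its range overlapped that of Tlr8. It had 25, 27 and 52 counts there and 37, 16 and 17 in the KspCre Tfam f/f-labelled ones. These are 0.918, 0.711 and 2.18 CPM against 0.869, 0.387 and 0.649 CPM. Labelled Tfam f/f replicate 3 stood alone: its exact 95% Poisson interval, 1.63 to 2.86 CPM, lay above those of the other 5 libraries, whose highest bound was 1.36 CPM. Replicate 2 of that label lay within the range of the opposite group, and replicate 1 just above it. The means were 1.27 ± 0.80 and 0.635 ± 0.24 CPM (SD, n = 3 each), a difference of 1.95-fold (log2 fold change -0.97, SE 0.50) with an edgeR adjusted p of 0.148. Without replicate 3 the log2 fold change was -0.35 (edgeR adjusted p = 0.517), and over all alternatives the adjusted p of Tlr9 ran from 0.0713 to 0.517. Intervals from counts cover counting error only.

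Tlr7, which senses single-stranded RNA and lies on chromosome X from 167304929 to 167330558, had 2.42, 1.87 and 5.33 CPM in Tfam f/f-labelled replicates 1, 2 and 3, and 2.54, 1.38 and 1.91 CPM in the others. The groups overlapped, and the log2 fold change was -0.71 (SE 0.43, edgeR adjusted p = 0.205). Of all pairs of members, Tlr7 and Tlr9 followed each other most closely, with a standard deviation of 0.152 for the log2 ratio of their levels over the 6 libraries. Tlr8, also a sensor of RNA, is the neighbour of Tlr7 on chromosome X (167242696 to 167264329). It had 0.477, 0.896 and 2.81 CPM (13, 34 and 67 counts) in Tfam f/f-labelled replicates 1, 2 and 3. In the others it had 0.329, 0.193 and 0.191 CPM (14, 8 and 5 counts). The groups did not overlap, but the Poisson interval of Tfam f/f-labelled replicate 1, 0.254 to 0.816 CPM, reached below the level of KspCre Tfam f/f-labelled replicate 1. The difference of Tlr8 was 5.57-fold (log2 fold change -2.48, SE 0.69, edgeR adjusted p = 0.0214) and -1.52 on the log2 scale without Tfam f/f-labelled replicate 3. The call was lost without KspCre Tfam f/f-labelled replicate 1, 2 or 3 (edgeR adjusted p = 0.0519, 0.0792 and 0.0707). Tlr8 passed the filter on low counts only through the Tfam f/f-labelled libraries, since the others were too low to pass alone. Without that filter its edgeR adjusted p was 0.0198.

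Tlr13, a mouse receptor for bacterial ribosomal RNA (chromosome X, 106143204 to 106160493), had 2.5, 1.61 and 6.21 CPM in Tfam f/f-labelled replicates 1, 2 and 3, and 1.41, 1.28 and 0.839 CPM in the others. The lowest of the former was just above the highest of the latter. The difference was 2.85-fold (log2 fold change -1.51, SE 0.50, edgeR adjusted p = 0.0411). This call was lost under 9 of 14 alternatives, more than for any other member called, among them the omission of Tfam f/f-labelled replicate 3, which left a log2 fold change of -0.77 (edgeR adjusted p = 0.085). Without Tfam f/f-labelled replicate 1 the adjusted p was 0.0654, and without KspCre Tfam f/f-labelled replicate 1, 2 or 3 it was 0.0854, 0.102 and 0.126. Tlr3, the receptor for double-stranded RNA (chromosome 8, 45395665 to 45411080), was the most abundant of the 8 receptors. It had 18.1, 21.2 and 31.1 CPM in Tfam f/f-labelled replicates 1, 2 and 3 and 16.8, 14.4 and 14.5 CPM in the others, close but without overlap. Tlr3 was 1.53-fold higher in the former (log2 fold change -0.62, SE 0.20, edgeR adjusted p = 0.0367), a call lost without KspCre Tfam f/f-labelled replicate 1, 2 or 3 (0.068, 0.117 and 0.116). Of its exon bases, 7.32% overlap Gm45542 on the opposite strand, where counts are uncertain because the strand setting of the counting is not given in the sources used here.

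**Figure D2:**
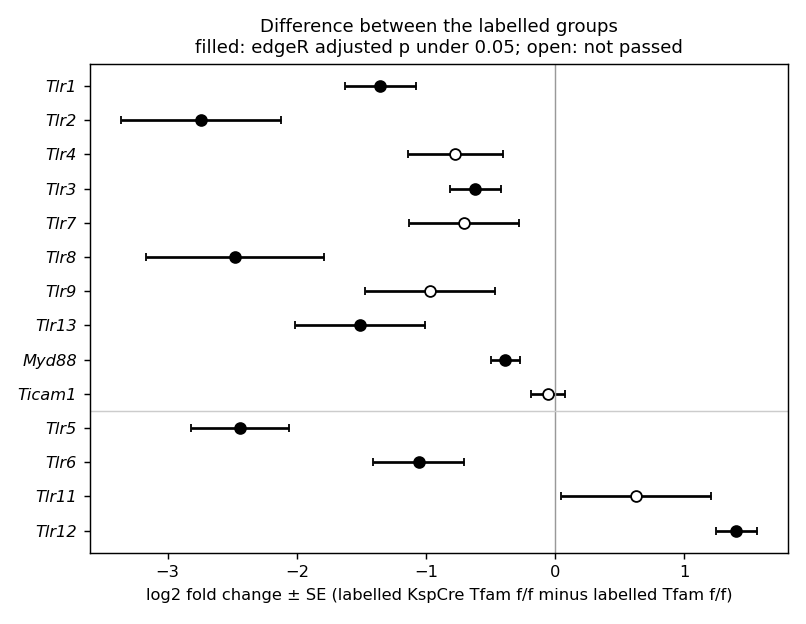
The log2 fold change (x axis, labelled KspCre Tfam f/f minus labelled Tfam f/f) with its standard error for the 10 members and, below the line, the other 4 mouse Toll-like receptor genes measured. Filled points passed the edgeR test at an adjusted p under 0.05; all members lie left of zero, and Tlr12, at 1.40, passed on the right.

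The adaptors differed little between the groups in size. Myd88, the adaptor shared by most of the receptors (ENSMUSG00000032508.8, chromosome 9, 119335934 to 119341411), had 22.5, 21.9 and 26.6 CPM in Tfam f/f-labelled replicates 1, 2 and 3. It had 16.8, 18.8 and 18.7 CPM in the others, without overlap and with little spread. It was 1.31-fold higher in the former (log2 fold change -0.39, SE 0.12, edgeR adjusted p = 0.0275), and the call was lost without KspCre Tfam f/f-labelled replicate 1, 2 or 3 (0.117, 0.075 and 0.0819). Of the exon bases of Myd88, 11.3% overlap those of Acaa1a on the opposite strand, a peroxisomal thiolase gene that went the other way, with 103 ± 16.3 CPM in the Tfam f/f-labelled libraries and 137 ± 6.87 in the others (SD, n = 3 each; log2 fold change 0.42, edgeR adjusted p = 0.0374). Ticam1, the adaptor of Tlr3 (chromosome 17, 56269319 to 56276786), had 29.5, 30.9 and 25.1 CPM in Tfam f/f-labelled replicates 1, 2 and 3, and 27.0, 31.5 and 23.9 CPM in the others. The groups overlapped almost fully, and the log2 fold change was -0.054 (SE 0.13, edgeR adjusted p = 0.759).

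**Figure D3:**
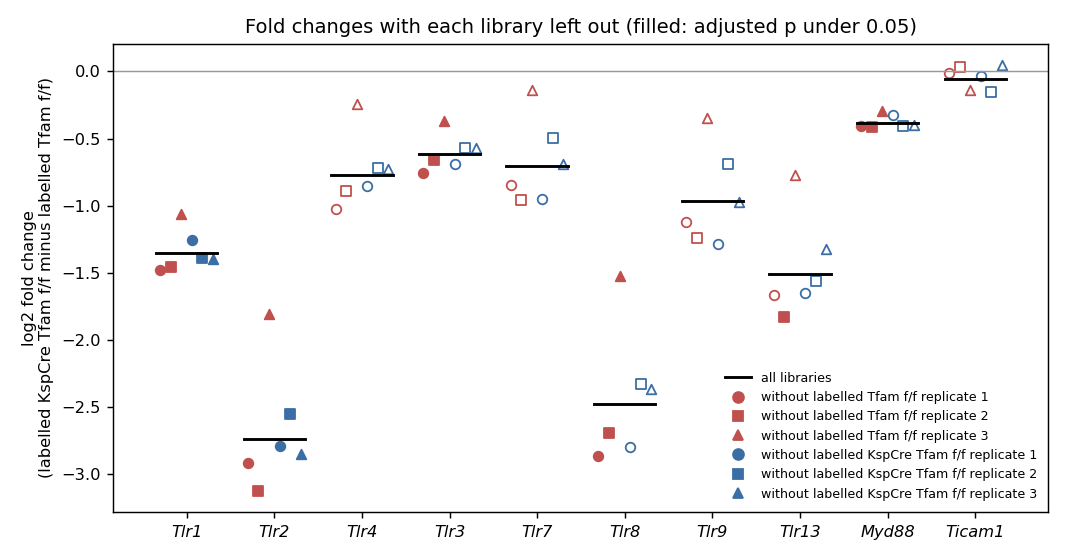
The log2 fold change (y axis) of each member (x axis) with all libraries (black lines) and with each library left out (points, coloured by the label of the library left out, shaped by its replicate number). Filled points have an edgeR adjusted p under 0.05. Without Tfam f/f-labelled replicate 3 (red triangles) every receptor lies nearer zero, Tlr2 at -1.81 in place of -2.74 and Tlr9 at -0.35 in place of -0.97.

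Levels can be compared between genes only per length, so CPM were divided by kilobases of exon. Among the members, the adaptors stood above the receptors on this scale in both groups: Ticam1 at 9.52 ± 1.01 and Myd88 at 9.18 ± 1.0 CPM per kilobase in the Tfam f/f-labelled libraries, and 9.18 ± 1.27 and 7.03 ± 0.44 in the others (SD, n = 3 each). Tlr3 came next, at 4.5 ± 1.3 and 2.92 ± 0.26 CPM per kilobase. In the Tfam f/f-labelled libraries the order of means then ran Tlr2 (3.30), Tlr1 (1.30), Tlr4 (1.0), Tlr13 (0.799), Tlr7 (0.786), Tlr8 (0.389) and Tlr9 (0.365), and the ranges of each neighbouring pair from Tlr3 down overlapped. In the KspCre Tfam f/f-labelled ones it ran Tlr4 (0.583), Tlr1 (0.508), Tlr2 (0.494), Tlr7 (0.475), Tlr13 (0.273), Tlr9 (0.182) and Tlr8 (0.0663). There the ranges of Tlr1 and Tlr2, Tlr2 and Tlr7, and Tlr13 and Tlr9 overlapped, while Tlr9 stood above Tlr8 in all libraries.

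The genes whose levels followed Tlr9 most closely over the 6 libraries, by the standard deviation of the log2 ratio, were looked for among 14429 tested genes whose mean log2 CPM was 0 or more. They were Gbp3, which encodes an interferon-inducible GTPase (0.149), Tlr7 (0.152), the class I histocompatibility gene H2-Q2 (0.170), the adhesion molecule gene Ncam1 (0.182) and the chromatin remodeller gene Smarca1 (0.208). Like Tlr9, each was highest in Tfam f/f-labelled replicate 3, with 31.0 CPM of Gbp3 there against 7.73 to 13 in the other 5 libraries. The genes were picked for following Tlr9 over these same libraries, so neither this peak nor their test result is independent of Tlr9. None of the 5 passed the edgeR test, with adjusted p from 0.0647 for H2-Q2 to 0.205 for Tlr7. H2-Q2 has near-identical relatives, so its counts are uncertain.

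Most markers of macrophages followed the direction of the receptors. Of 18 such markers, 16 passed as higher in the Tfam f/f-labelled libraries and Csf1r and Ptprc did not pass. Csf1r had 1564, 1836 and 2053 counts in Tfam f/f-labelled replicates 1, 2 and 3 and 3403, 3226 and 2133 in the others. Scaled for depth, its mean was higher in the KspCre Tfam f/f-labelled libraries, with overlap. The summed level of the 18 was 1115, 624 and 1704 CPM in Tfam f/f-labelled replicates 1, 2 and 3 and 302 to 366 CPM in the others. Cd68, a lysosomal protein of macrophages, had 11.1, 7.40 and 18.3 CPM against 2.88 to 3.05 CPM. Replicate 3 was thus the highest of that label for the marker sum, as for all 8 receptors. Replicate 2 was the lowest for the sum and for Tlr2, Tlr7, Tlr9 and Tlr13, whereas replicate 1 was the lowest for Tlr1, Tlr3, Tlr4 and Tlr8. Their part in the differences of the members was not tested.

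The members' levels were also set against the summed macrophage markers. That sum was itself 3.52-fold higher in the Tfam f/f-labelled libraries by the ratio of means, so a gene that differed less between the groups comes out lower there on this scale, as Ticam1 does. Per 1000 CPM of these markers, Tlr4 had 2.90, 7.05 and 5.35 CPM in Tfam f/f-labelled replicates 1, 2 and 3 and 9.89, 9.78 and 10.1 CPM in the others. Tlr3, Tlr4, Tlr7, Myd88 and Ticam1 were lower on this scale in all 3 Tfam f/f-labelled libraries than in any of the others, by 1.05 to 1.64 in log2. Their exact two-sided permutation p of 0.1 is the smallest that 3 against 3 libraries allow, so no member could pass a threshold of 0.05 in these 10 comparisons. Tlr9 had 0.823, 1.14 and 1.28 CPM per 1000 against 2.38, 1.24 and 2.14, with overlap (log2 difference 0.80, exact permutation p = 0.2). Tlr2 and Tlr8 kept their higher mean in the Tfam f/f-labelled libraries, with log2 differences of -0.71 and -0.51 and overlapping groups (exact permutation p = 0.2 and 0.4). Tlr1 (0.39) and Tlr13 (0.35) overlapped as well. The scale depends on the markers: Cd74 and Lgals3, which epithelial cells can also express, made up 57.7% to 68.7% of the sum in the Tfam f/f-labelled libraries and 45.0% to 48.4% in the others. Without Cd74 and Lgals3 the differences of Tlr3 and Myd88 were 0.59 and 0.80 (exact permutation p = 0.2 each). Over Ptprc alone 6 of the 10 differences changed sign. Those of Myd88 and Ticam1 were then 0.20 and 0.53, and the exact permutation p of Tlr3, Tlr4, Tlr7, Myd88 and Ticam1 was 1, 0.9, 0.9, 0.6 and 0.3, so none of the 5 kept its separation. Tlr2 did separate over Ptprc alone (-1.83) and without Cd74 and Lgals3 (-1.23; exact permutation p = 0.1 each). It also did so without Cd68, Lgals3 and Mrc1 (-0.93, exact permutation p = 0.1), but not over Cd68 alone (-0.47, exact permutation p = 0.4). Tlr1 separated over Ptprc alone (-0.73, exact permutation p = 0.1).

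**Figure D4:**
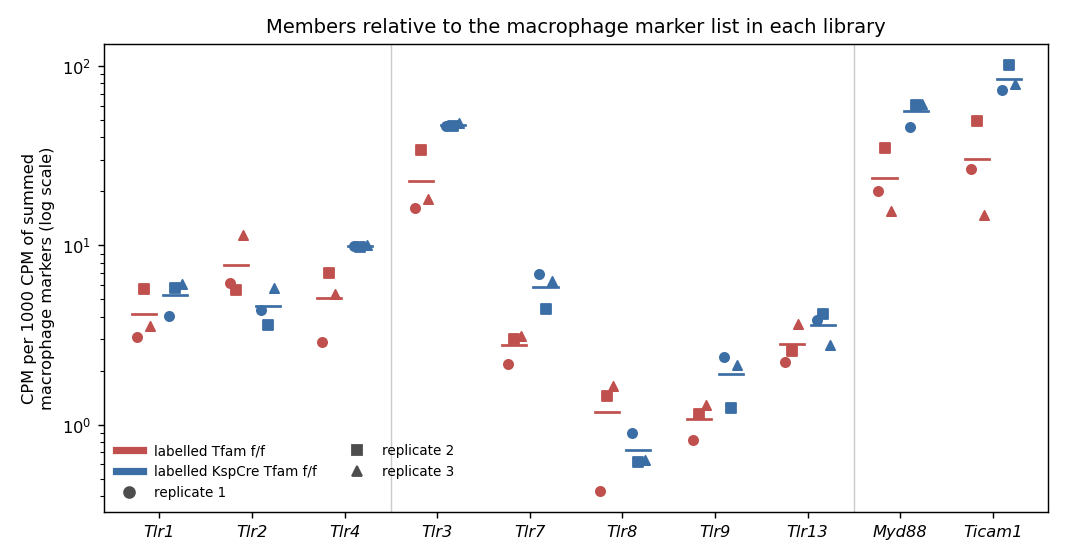
Each member's CPM per 1000 CPM of summed macrophage markers (y axis, log scale) in the 6 libraries, drawn as in the plot of normalised CPM. Over this marker sum, though not over Ptprc alone, Tlr3, Tlr4, Tlr7, Myd88 and Ticam1 do not overlap between the groups and are lower in the Tfam f/f-labelled libraries, whereas Tlr1, Tlr2, Tlr8, Tlr9 and Tlr13 overlap.

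Markers of other immune cells were much lower in level. Of 9 neutrophil markers found, 2 were tested and both were higher in the Tfam f/f-labelled libraries. The neutrophil sums were 2.37 to 13 CPM there and 0.992 to 2.04 in the others, with Mpo at 0 counts in all libraries. For B cells 3 of 5 tested markers passed in that direction, with sums of 5.80 to 9.23 and 2.91 to 4.39 CPM, and for T and NK cells 2 of 7 (14.0 to 29.7 and 6.22 to 8.36 CPM). The T and NK share of 28.6% is near the 24.9% of all tested genes. Of 7 markers of plasmacytoid dendritic cells, a cell type known for Tlr7 and Tlr9, Bcl11a, Spib and Pacsin1 passed as higher in the Tfam f/f-labelled libraries. The sums of the 7 overlapped (33.6 to 45.3 and 40.4 to 41.4 CPM), but Tcf4, which many other cells express, made up 80.9% to 93.0% of them. The 6 markers other than Tcf4, summed after these values were seen, had 5.82 to 6.43 and 2.82 to 2.96 CPM, without overlap and with a ratio of means of 2.12. This sum leans on Pacsin1, which had the most counts of the 6 in each Tfam f/f-labelled library (111, 116 and 72, against 39, 24 and 19). The defining marker Siglech did not pass, nor did Tcf4, Ccr9 and Klk1b27. Before scaling for depth, Ccr9 had 6, 6 and 6 counts against 10, 20 and 11. Klk1b27 had 21, 10 and 3 against 31, 45 and 24. Both also had their higher scaled mean in the KspCre Tfam f/f-labelled libraries, with overlap. The part of these cells in the differences of the members was not tested. Of 8 endothelial markers only Ehd3 passed, as higher in the KspCre Tfam f/f-labelled libraries, with sums of 199 to 369 and 327 to 338 CPM. Of the tubule markers, 7 of 9 for the proximal tubule and 4 of 8 for the distal nephron passed as higher in the KspCre Tfam f/f-labelled libraries, and the distal marker Scnn1b passed in the other direction.

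The remaining mouse Toll-like receptor genes did not share 1 direction. Tlr5, the receptor for flagellin, had 1.18, 1.92 and 2.14 CPM in Tfam f/f-labelled replicates 1, 2 and 3 and 0.423, 0.314 and 0.191 CPM in the others (5.42-fold higher in the former, edgeR adjusted p = 0.00244). Tlr12, a receptor for a parasite profilin, went the other way, with 10.2, 12.6 and 8.52 CPM against 27.4, 30.0 and 25.6 CPM (2.64-fold higher in the KspCre Tfam f/f-labelled libraries, edgeR adjusted p = 0.000736). At 8.71 ± 0.71 CPM per kilobase in that group (SD, n = 3), Tlr12 stood above all 8 receptors described here. It also stood above the adaptor gene Myd88, at 7.03 ± 0.44 there (SD, n = 3). Tlr6 was 2.08-fold higher in the Tfam f/f-labelled libraries (edgeR adjusted p = 0.0404), at 0.632 to 0.797 against 0.217 to 0.458 CPM, and its call was lost without any 1 library except Tfam f/f-labelled replicate 2. It was also lost by DESeq2 (adjusted p = 0.0679), with the replicate number as a block (edgeR adjusted p = 0.0606) and without a filter on low counts (edgeR adjusted p = 0.0764). Tlr11, which also recognises profilin, had 0.294 to 1.11 and 0.458 to 1.46 CPM and did not pass (edgeR adjusted p = 0.4). Its log2 fold change of 0.63 became 1.54 without Tfam f/f-labelled replicate 2.

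Outside the receptors and adaptors chosen, 68 genes of the pathway in 6 lists were tested. Of these, 20 (29.4%) were higher in the Tfam f/f-labelled libraries, 11 (16.2%) were higher in the KspCre Tfam f/f-labelled ones, and 37 did not pass. The shares over all tested genes were 24.9% and 21.3%. The lists, like the members, were chosen with earlier results of these data known. The median log2 fold change of the 68 was -0.14. Without KspCre Tfam f/f-labelled replicate 1, 2 or 3 the 11 became 6 each time. Of 7 other receptors and adaptors, 3 were higher in the Tfam f/f-labelled libraries, Tlr12 was higher in the others, and Tirap, Sarm1 and Tlr11 did not pass. Beside Tlr5 and Tlr6 the third was Ticam2, the bridging adaptor of Tlr4, which was 4.59-fold higher there (edgeR adjusted p = 0.0116) at levels under 1 CPM. Tlr5, Tlr6 and Ticam2 passed the filter on low counts only through the Tfam f/f-labelled libraries.

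Co-receptors and the endosomal machinery held 10 of the 20 pathway genes that were higher in the Tfam f/f-labelled libraries. Of 6 co-receptors, 3 were higher there. Cd14, which hands lipopolysaccharide to Tlr4, had 11.9, 5.27 and 36.7 CPM against 2.54, 2.30 and 2.33 CPM (7.46-fold, edgeR adjusted p = 0.011; log2 fold change -2.90, and -1.84 without Tfam f/f-labelled replicate 3). The call of Cd14 was lost by limma voom (adjusted p = 0.0555) and without a filter on low counts (edgeR adjusted p = 0.0797). Ly86, a surface partner of Cd180, was 3.64-fold higher (edgeR adjusted p = 0.00842; log2 fold change -1.86, and -1.28 without the same library), and Cd180 was the third. Cd36, a fatty acid transporter that also assists Tlr2, was 7.12-fold higher in the KspCre Tfam f/f-labelled libraries (edgeR adjusted p = 0.00248), and Lbp and Ly96 did not pass.

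Of 17 genes for endosomal trafficking, processing and nucleic acid digestion, 7 were higher in the Tfam f/f-labelled libraries, Hsp90b1 was higher in the others and 9 did not pass. Unc93b1, which carries the nucleic acid receptors to endosomes, had 52.3, 41.2 and 72.8 CPM in Tfam f/f-labelled replicates 1, 2 and 3 and 19.6, 19.5 and 17.3 CPM in the others. It was 2.94-fold higher in the former (edgeR adjusted p = 0.00121). Dnase2a, the lysosomal enzyme that digests DNA, was 1.75-fold higher (edgeR adjusted p = 0.00272) and Pld3, an endosomal exonuclease for single-stranded nucleic acid, 1.51-fold (edgeR adjusted p = 0.00322). The other 4 were Pld4, Dnase1l3 and the cathepsin genes Ctsk and Ctss.

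Downstream of the adaptors the shares that passed were close to or below those of all tested genes, 24.9% and 21.3%. They were 18.2% in each direction for the signalling genes and 22.2% in each direction for the inhibitors. Of 22 signalling genes, Tab1, Pik3ap1, Ikbke and Irak4 were higher in the Tfam f/f-labelled libraries, Tbk1, Chuk, Irf5 and Ube2n were higher in the others, and 14 did not pass, among them Irak1, Traf6, Irf3 and Irf7. Chuk, a kinase of the NF-kappaB inhibitor, was 2.36-fold higher in the KspCre Tfam f/f-labelled libraries (edgeR adjusted p = 0.00289), as was Irf5, an interferon regulatory factor that binds Myd88 (1.98-fold, edgeR adjusted p = 0.00452). Tab1, a partner of the kinase TAK1, was 1.32-fold higher in the Tfam f/f-labelled libraries (edgeR adjusted p = 0.0074). Of 9 inhibitors, 2 were higher in each direction and 5 did not pass. Tnip1, which binds the ubiquitin editor encoded by Tnfaip3, had 58.6, 49.1 and 58.4 CPM against 14.7, 15.3 and 16.9 CPM (3.54-fold, edgeR adjusted p = 7.16e-05). Zc3h12a, an RNase that limits cytokine mRNA, was 1.96-fold higher there (edgeR adjusted p = 0.0067). Tollip, a brake on receptor signalling, was 1.23-fold higher in the KspCre Tfam f/f-labelled libraries (edgeR adjusted p = 0.0323), and Sigirr was also higher there. The Tollip call was lost without any of those 3 libraries or without Tfam f/f-labelled replicate 1. It was also lost with upper quartile scaling, without a filter on low counts and with the replicate number as a block (edgeR adjusted p = 0.0654, 0.0696 and 0.0854).

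Of 7 tested genes for proteins described as endogenous ligands, S100a9 was 6.13-fold higher in the Tfam f/f-labelled libraries (edgeR adjusted p = 0.0212), a neutrophil protein at 0.218 to 3.52 CPM whose groups overlapped. Its call was lost without Tfam f/f-labelled replicate 1 or KspCre Tfam f/f-labelled replicate 2 or 3 (edgeR adjusted p = 0.0634, 0.0797 and 0.0716) and by limma voom (adjusted p = 0.0834). Its log2 fold change of -2.62 was -1.98 without Tfam f/f-labelled replicate 3. S100a9 passed the filter on low counts only through the Tfam f/f-labelled libraries. The chaperone genes Hspd1 (1.95-fold, edgeR adjusted p = 0.0129) and Hspa1a (2.19-fold, edgeR adjusted p = 0.0161) were higher in the KspCre Tfam f/f-labelled libraries. The Hspd1 call was lost without Tfam f/f-labelled replicate 1 (0.0555). Hmgb1, Bgn, Vcan and Tnc did not pass, and S100a8 was too low to be tested.

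**Figure D5:**
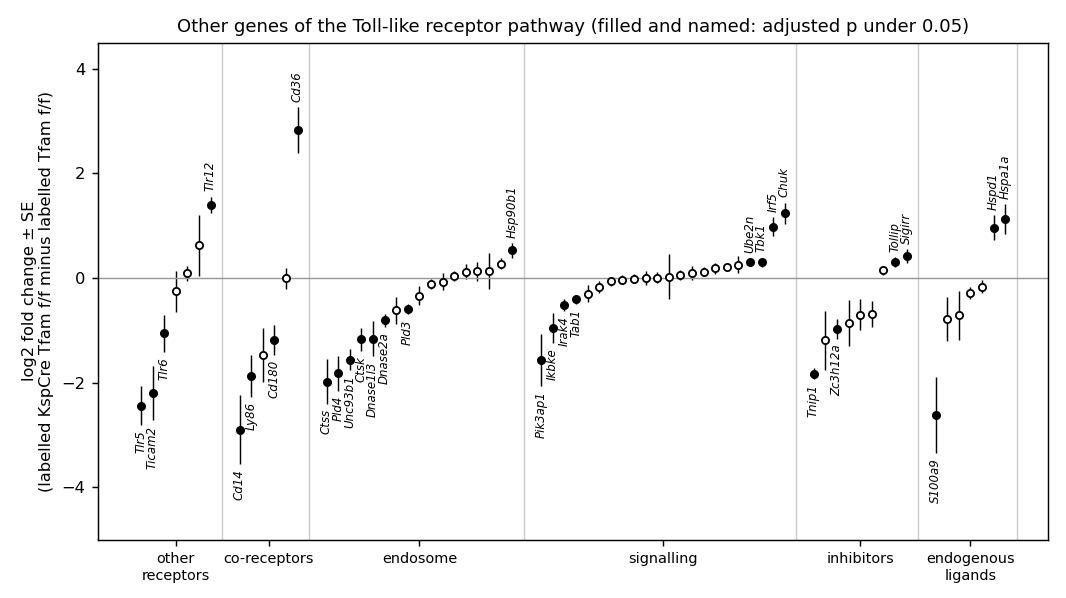
The log2 fold change with its standard error (y axis, labelled KspCre Tfam f/f minus labelled Tfam f/f) of the 68 other tested pathway genes, grouped by role along the x axis and ordered by fold change within a role. Filled, named points passed the edgeR test at an adjusted p under 0.05. Co-receptor and endosome genes that passed lie mostly below zero, and signalling genes that passed lie 4 below and 4 above it.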

How the data were processed

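Values were the authors' deposited raw read counts per gene, 1 table per library, of poly A+ selected, strand-specific RNA from whole kidney, per the labels' protocols. The submitters' processing notes name the build mm10 and, among other tools, HTSeq 0.11.0 and STAR 2.4.1d. For the annotation release and the strand setting: not given in the sources used here. The 5 summary lines, 16.0% to 20.4% of all lines' counts, were left out. Gene positions, exon lengths and shared sequence came from GENCODE M21, where 54079 of 54146 identifiers matched without version suffix.

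Counts were filtered (edgeR 4.0.16 filterByExpr, minimum count 10, minimum total 15), scaled by TMM and compared with edgeR's quasi-likelihood test (robust; R 4.3.3). P-values were adjusted by Benjamini-Hochberg over 17308 genes and called below 0.05. Standard errors came from the fold change and F statistic. Alternatives were other scaling, filters and tools (DESeq2 1.42.0, limma 3.58.1 voom), the replicate number as a block, thinning, and each library left out. On simulated counts for this comparison (17308 genes) the test recovered 17.9% of 67 genes changed by 1.5-fold, 44.8% of 67 by 2-fold and 84.6% of 65 by 4-fold, with 14 false calls. The changed genes were a small part of those simulated, whereas 46.2% passed in the data. The Benjamini-Hochberg cutoff depends on that share, so these rates do not give the recovery in the data.

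Members and gene lists were chosen with earlier results of these data known. Named are all members, the other 4 mouse receptor genes, up to 3 called genes of smallest p per pathway list, the marker lists and the 5 genes nearest to Tlr9. Genes named beside a small count were chosen after their values were seen. Separate animals are not named in the labels. The p-values therefore reflect spread between libraries alone, which may be technical. Libraries of a group differed beyond sampling noise (chi-square per degree of freedom 7.09 to 164), so none was treated as a duplicate.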

Additional observations from a re-analysis of the deposited data

How the results depend on the processing

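Leaving out 1 library gave 2 to 6 members higher in the Tfam f/f-labelled libraries (6 with all), 0 in the other direction, 14 to 24 and 6 to 13 pathway genes (20 and 11 with all), and 2822 to 4942 and 2276 to 4652 of all genes (4310 and 3690 with all). The low end of each range came without a KspCre Tfam f/f-labelled library. A minimum fold of 1.5 left 2 members, and 1824 and 1116 of all genes. With the replicate block, 4 members passed (Tlr13 and Myd88 did not) and 7 pathway genes were higher in the KspCre Tfam f/f-labelled libraries. The replicate numbers gave no sign of pairing the libraries: deviations of same-numbered libraries correlated at -0.174, -0.0702 and -0.0708, and those of differently numbered ones at -0.0619 to 0.194. With 3 libraries per group, centred on their means, such values cannot exclude a pairing. Tfam kept its direction and call, at 0.967 to 1.25 in log2. Of 138 recomputed member fold changes, 116 kept direction and call, 20 lost the call and 2 changed sign, both of Ticam1, whose range with 1 library left out was -0.155 to 0.0462 (0.0307 without Tfam f/f-labelled replicate 2). The 138 include those of Tlr4, Tlr7, Tlr9 and Ticam1, which were not called and so had no call to lose. The lost calls were of Tlr13 (9), Myd88 (4), Tlr3 (3), Tlr8 (3) and Tlr2 (1). Without a filter on low counts Tlr2 and Tlr13 were not called (edgeR adjusted p = 0.0611 and 0.0532), and with a minimum of 1 CPM in 3 libraries Tlr8 and Tlr9 were not tested. Over Ptprc alone the difference relative to macrophage markers changed sign for Tlr1 (-0.73), Tlr3 (-0.000296), Tlr4 (-0.062), Tlr7 (-0.033), Tlr9 (-0.32) and Tlr13 (-0.76). Without Cd74 and Lgals3, an alternative chosen after seeing the data, it did so for Tlr1 (-0.13) and Tlr13 (-0.17). The cause was not tested. Depth limits Tlr8 and Tlr9 most, at 5 to 67 and 16 to 52 counts per library.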
